A study of Rattus norvegicus with 6 samples.

Results

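Irf9, Ifit2, Ifi27l2b and Ifitm1 are rat genes of the interferon response, and their transcripts were compared between 3 esophageal tumor cell lines and normal esophageal cells. The 4 genes were taken by symbol from the platform annotation, and each was represented by 1 cDNA clone printed as a pair of adjacent spots. They therefore contributed 8 of 16128 spots and 4 of 3158 named genes. The tumor lines JA, JB and Amy came from tumors induced by reflux, and each was hybridized against a pool made of equal parts of 2 normal rat esophageal cell lines. Each line was measured on 2 arrays, one with the line in Cy3 and the pool in Cy5 and the other with the dyes exchanged, which gave 6 arrays. All groups shared the same pool, and no treatment of the cells was named. The sources used here do not state the strain, sex, age or passage, nor how many animals stand behind a line, and each line counts as 1 sample.

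Values are given as log2 ratios, tumor line divided by pool. Neither the log base nor the direction is stated; the direction is only likely, taken from titles that name the line first, and with the signs turned higher and lower would be exchanged throughout. The 4 genes were chosen because earlier results of these data had them low in all 3 lines, so their ratios to the pool are given as a description with no test. The 2 arrays of a line are a dye swap of the same extracts and count as 1 replicate, so n is 3 lines, and precision is limited by that number. The p-values below measure only the spread between these lines, with the pool taken as a single sample. Array medians lay between -0.05 and -0.15, and the paired spots of a clone correlated at 0.907 to 0.949.

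Type I interferons signal through the receptor chains Ifnar1 and Ifnar2, the kinases Jak1 and Tyk2, and transcription factors that include Stat2. Phosphorylated Stat2 joins Irf9, which supplies sequence-specific DNA binding, and the complex they form part of binds the interferon-stimulated response element (ISRE) of target genes. Interferon gamma acts mainly through the gamma-activated site (GAS). Ifit2 is a tetratricopeptide-repeat protein that binds RNA, Ifi27l2b belongs to a family of small hydrophobic interferon-induced membrane proteins, and Ifitm1 is a membrane protein that restricts virus entry.

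The promoters printed here come from RefSeq (GRCr8) and cover 250 bases before to 50 bases after a gene's start. Of the 4 genes, 1 had a window in the table, Irf9. It is shown with 3 pathway genes described further on, Irf1 for its GAS letters, Ifitm3 as a chromosomal neighbor of Ifitm1, and Psmb8 for its difference between lines. Capitals mark matches to the ISRE core (GAAA, any 2 bases, GAAA) or to the GAS letters TTCNNNGAA, both searched on either strand.
Irf9, chr15:33065586-33065885, plus strand: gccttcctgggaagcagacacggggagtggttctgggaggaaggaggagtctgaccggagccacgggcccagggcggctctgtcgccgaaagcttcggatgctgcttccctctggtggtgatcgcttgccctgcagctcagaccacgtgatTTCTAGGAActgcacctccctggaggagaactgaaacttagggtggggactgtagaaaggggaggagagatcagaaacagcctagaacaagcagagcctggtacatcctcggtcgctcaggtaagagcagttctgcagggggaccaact
Irf1, chr10:38417685-38417984, plus strand: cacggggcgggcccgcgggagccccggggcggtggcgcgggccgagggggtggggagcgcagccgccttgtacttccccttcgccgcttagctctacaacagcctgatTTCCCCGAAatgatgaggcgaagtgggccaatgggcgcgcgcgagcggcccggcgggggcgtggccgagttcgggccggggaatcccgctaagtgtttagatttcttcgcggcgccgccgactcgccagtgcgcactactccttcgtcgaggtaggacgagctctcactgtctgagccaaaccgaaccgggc
Ifitm3, chr1:205541709-205542008, minus strand: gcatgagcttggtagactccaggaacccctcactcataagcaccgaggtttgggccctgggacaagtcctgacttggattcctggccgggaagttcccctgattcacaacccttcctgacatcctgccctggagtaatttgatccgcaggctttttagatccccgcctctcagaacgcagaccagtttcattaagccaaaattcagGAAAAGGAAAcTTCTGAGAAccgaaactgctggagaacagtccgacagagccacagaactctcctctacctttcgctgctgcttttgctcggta
Psmb8, chr20:4656982-4657281, minus strand: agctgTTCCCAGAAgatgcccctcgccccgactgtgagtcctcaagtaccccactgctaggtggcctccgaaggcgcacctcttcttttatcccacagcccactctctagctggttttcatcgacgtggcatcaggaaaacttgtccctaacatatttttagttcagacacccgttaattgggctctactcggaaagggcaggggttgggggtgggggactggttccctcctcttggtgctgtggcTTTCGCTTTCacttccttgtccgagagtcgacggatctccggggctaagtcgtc
The Irf9 window held 1 GAS match, TTCTAGGAA, at bases 152 to 160, beginning at -99 from the start site, and no match to the ISRE core. Irf1 likewise held a GAS match alone, beginning at -142. Ifitm3 held both sets of letters close together, the ISRE core from -44 and the GAS letters from -33. Psmb8 held the ISRE core on the opposite strand from -4 and GAS letters from -245. Among all 33469 windows, 3.92% held the ISRE core and 8.87% the GAS letters. Of the 31 measured pathway genes with a window, 14 held the ISRE core and 9 the GAS letters. A match describes letters in this window only.

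Irf9, the DNA-binding partner of Stat2, was below the pool on all 6 arrays, averaging -1.37 ± 0.17 on the log2 scale (SD, n = 3 lines), or 2.58-fold lower. With the line in Cy3 its ratios were -1.24 in JA, -0.14 in JB and -0.93 in Amy. With the line in Cy5 they were -1.84 in JA, -2.58 in JB and -1.48 in Amy. JB thus had both the least and the most reduced value of Irf9, and the small SD of the line means leaves this out because each mean averages the dyes. The mean was -0.77 on the Cy3 arrays and -1.97 on the Cy5 arrays. Leaving out the JB array in Cy5 gave -0.96 and leaving out the JB array in Cy3 gave -1.77. The paired spots of Irf9 differed by 0.06 to 0.42 on an array, so both spots showed the JB difference, at -0.08 and -0.19 in Cy3 and -2.37 and -2.78 in Cy5.

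Ifit2 had the lowest mean of the 4 genes over both spots, at -2.63 ± 0.57 (SD, n = 3 lines), or 6.19-fold lower, and was negative on all 6 arrays. On the Cy3 arrays its log2 ratios were -2.34 in JA, -2.70 in JB and -2.92 in Amy. On the Cy5 arrays they were -4.24 in JA, -1.90 in JB and -1.67 in Amy. JA in Cy5 stood apart from the other 5 arrays, and that value came from 1 of its 2 spots. The first spot read -1.59 and the second -6.89, a gap of 5.30 on an array where the median gap between paired spots was 0.14. A gap of at least that size was seen for 2 of 8064 clones on that array, Ifit2 included. The next widest gap of Ifit2 was 1.51, on the Amy array in Cy3, where the spots read -2.16 and -3.67.

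The order of the lines for Ifit2 changed with the spot. Over both spots JA was lowest at -3.29, with JB at -2.30 and Amy at -2.29. On the first spot alone JB was lowest at -2.46, with JA and Amy both at -1.85. On the second spot alone JA stood at -4.74, Amy at -2.73 and JB at -2.14. The mean was -2.06 ± 0.35 on the first spot and -3.20 ± 1.36 on the second (SD, n = 3 lines). With first spots alone Ifi27l2b, at -2.13, was lower than Ifit2. Ifit2 was therefore below the pool on either spot, while the distance of JA from the other lines was not seen on the first spot.

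Ifi27l2b was at -2.12 ± 0.35 (SD, n = 3 lines), or 4.35-fold lower, and was the steadier of the strongly reduced genes. Its Cy3 ratios were -2.11 in JA, -2.38 in JB and -2.71 in Amy. Its Cy5 ratios were -1.44 in JA, -1.86 in JB and -2.23 in Amy. Amy was the lowest and JA the least reduced line in both dye orientations. The same order held on each of its spots, with line means of -1.81, -2.08 and -2.50 on the first and -1.74, -2.16 and -2.43 on the second for JA, JB and Amy. Its paired spots differed by at most 0.31.

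Ifitm1 had the smallest reduction, at -1.0 ± 0.11 (SD, n = 3 lines), or 2.0-fold lower. Its Cy3 ratios were -1.17 in JA, -1.18 in JB and -1.26 in Amy, and its Cy5 ratios were -0.78, -0.63 and -0.99. Amy was the lowest line in both orientations, while JA and JB were nearly equal in Cy3 and JB was the least reduced in Cy5. Paired spots differed by at most 0.09, the closest agreement of the 4 genes.

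**Figure D1:**
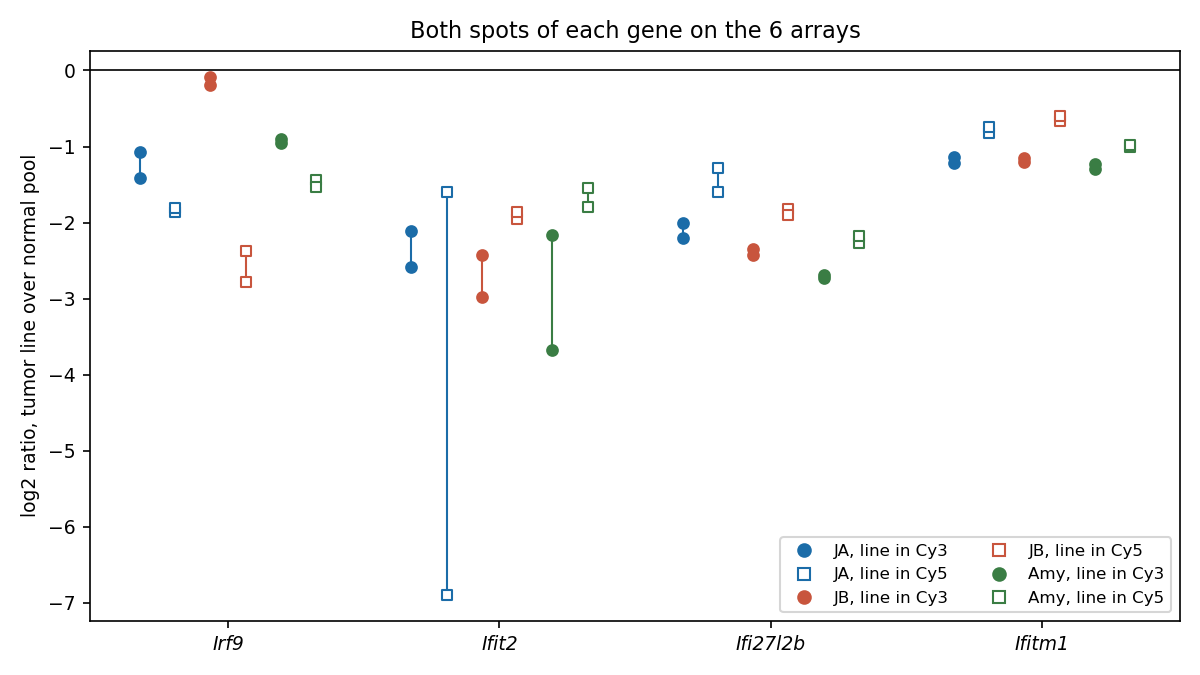
Log2 ratio of tumor line over normal pool for both spots of Irf9, Ifit2, Ifi27l2b and Ifitm1 on 6 arrays; filled circles have the line in Cy3, open squares in Cy5, colors give the line and a vertical stroke joins the paired spots. All values lie below 0, and the single low spot of Ifit2 at -6.89 belongs to the JA array in Cy5.

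The 4 genes were chosen for being low in these data, so the shares in this paragraph describe them and test nothing. Among all 7180 features (named genes, and clones without a single gene name), 33.4% were negative on all 6 arrays, as all 4 genes were. At least 2-fold lower on all 6 arrays were 8.12% of features, and 2 of the 4 genes, Ifit2 and Ifi27l2b. A mean as low as that of Ifit2 was found for 3.13% of features, as low as that of Ifi27l2b for 4.60%, as low as that of Irf9 for 9.85% and as low as that of Ifitm1 for 15.0%. The median of all features was -0.12. With each array centered on its median the means became -2.51 for Ifit2, -2.01 for Ifi27l2b, -1.25 for Irf9 and -0.89 for Ifitm1, and none changed sign. The range of the 3 line means was 0.33 for Irf9, 0.999 for Ifit2, 0.69 for Ifi27l2b and 0.22 for Ifitm1, against a median range of 0.44 over all features.

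The dye orientation gave a measure that was not used to choose the genes. The difference of the Cy5 array minus the Cy3 array was -0.59 in JA, -2.44 in JB and -0.56 in Amy for Irf9. For Ifi27l2b it had the opposite sign, at 0.66, 0.53 and 0.48, and for Ifitm1 as well, at 0.39, 0.55 and 0.27. Ifit2 was mixed, at -1.90, 0.80 and 1.25. Irf9 thus read lower, and Ifi27l2b and Ifitm1 higher, on the Cy5 array of every line. Such a shared sign was common, with 29.1% of all features lower and 31.1% higher in Cy5 in every line.

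In limma, with Benjamini-Hochberg adjustment over all features, none of the 4 genes passed for this difference at 0.05. The mean difference was -1.19 for Irf9 (95% interval -2.35 to -0.04, adjusted p = 0.134), 0.56 for Ifi27l2b (0.29 to 0.83, adjusted p = 0.0608), 0.40 for Ifitm1 (0.11 to 0.69, adjusted p = 0.0877) and 0.05 for Ifit2 (-1.75 to 1.85, adjusted p = 0.964). Unadjusted, 3 of the 4 had p under 0.05, as did 35.3% of all features. After adjustment 0.501% of all features were called, 36 in number, and without moderation of the variances 0 were called. With quantile normalized arrays 440 features were called and Ifi27l2b passed, at 0.70 (adjusted p = 0.0481). A largest single-line gap wider than that of Irf9 was found for 2.73% of features and one wider than that of Ifit2 for 4.79%.

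Other genes of the pathway showed dye differences of both signs. Stat2, the partner of Irf9, was at 0.50 on average in Cy3 and -0.74 in Cy5, a difference of -1.24 ± 0.39 (SD, n = 3 lines, adjusted p = 0.0572 in limma). It therefore had no settled direction against the pool, and its mean of -0.12 ± 0.28 did not pass (adjusted p = 0.528; 0.00936 on the Cy5 arrays alone). Irf1 differed by -1.16 ± 0.65 (adjusted p = 0.0727) and the guanylate-binding protein Gbp5 by -1.11 ± 0.30 (adjusted p = 0.0572). Sp110, a nuclear body protein, differed by -2.64 ± 0.97 (adjusted p = 0.0572). Rsad2, the antiviral enzyme viperin, differed the other way, by 1.56 ± 0.52 (adjusted p = 0.0572). Gbp5, Sp110 and Rsad2 were singled out here after their values were seen. Of the 34 pathway genes other than the 4, 9 had an unadjusted p under 0.05 and 0 passed after adjustment. Of these 34 genes, 29.4% read lower in Cy5 in all 3 lines and 23.5% higher, against 29.1% and 31.1% of all features.

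**Figure D2:**
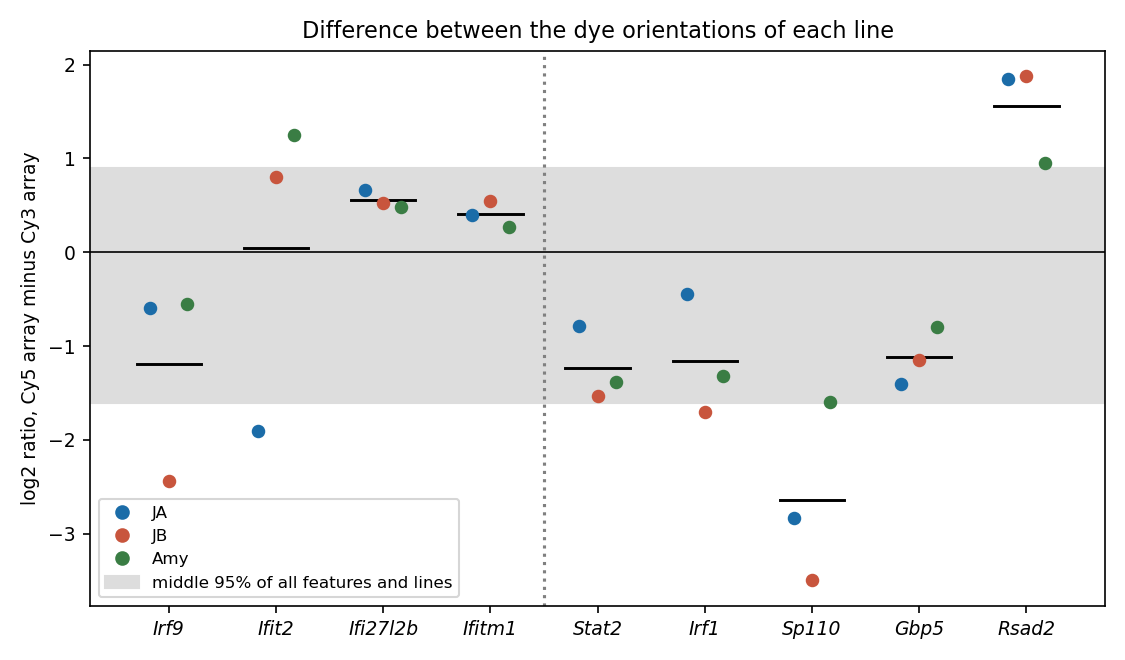
Difference of the log2 ratio between the array with the line in Cy5 and the array with the line in Cy3, 1 point per line and a bar at the mean, for the 4 genes and, right of the dotted line, 5 other pathway genes. The grey band holds the middle 95% of values over all features and lines, from -1.60 to 0.90; among the 4 genes JB lies outside it for Irf9, and JA and Amy for Ifit2.

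The rest of the pathway was read from 6 lists covering ligands and receptors, transducers and interferon regulatory factors, nucleic acid sensors, induced effectors, MHC class I presentation and negative regulators. Of 151 further symbols, 34 were measured as named genes; Jak1, Tyk2, Ifnar2, Irf7 and Isg15 were not analysed here. In the limma test of the 3 lines against the pool, 8 of these 34 were lower, 2 were higher and 24 did not pass. Of all features 32.8% were called lower and 20.7% higher, 53.5% in all, while 29.4% of the pathway genes were called. The median of the 34 genes was -0.28, beside -0.12 for all features. With arrays centered on their medians the split became 7 lower and 6 higher, while that of all features moved the same way, from 2356 lower and 1487 higher to 2009 and 1824. With quantile normalization it was 9 lower and 4 higher, beside 2383 and 1496 of all features. The count of calls, 10 in all, became 3 without JA, 6 without Amy, 6 without the JB array in Cy5, 3 when the pool was given a spread of its own and 2 without moderation of the variances. With a spread for the pool Samhd1, Sp100 and Sp110 kept their calls. Without moderation Samhd1 alone kept its call, and Eif2ak2 was added.

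Among receptors and transducers, 3 genes passed. Ifnar1, a chain of the type I interferon receptor, was higher at 0.42 ± 0.18 (SD, n = 3 lines, adjusted p = 0.0427). Its 2 clones carried the same accession and stood at 0.85 and -0.02, and the call was lost without JA (adjusted p = 0.187), without JB (0.0847) or without Amy (0.0761). It was also lost on leaving out any single array except Amy in Cy3 (adjusted p of 0.0551 to 0.0769). Irf1, which also drives interferon-induced genes, was lower at -1.26 ± 0.66 (adjusted p = 0.0125). Its ratios were -1.22, 0.32 and -1.15 in Cy3 and -1.66, -1.38 and -2.47 in Cy5 for JA, JB and Amy. The call of Irf1 was lost without JA (adjusted p = 0.0914), without Amy (0.0600), without the JB array in Cy5 (0.112) and on the Cy3 arrays alone (0.132). That call was also lost with a spread for the pool (0.0774) and without moderation of the variances (0.148). Stat3, a transducer of the interleukin-6 family, was lower at -2.89 ± 2.20 (adjusted p = 0.0309), a call lost without JA (0.127), with a spread for the pool (0.148) and without moderation of the variances (0.228). Its mean was -1.70 without JB.

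The other measured transducers did not pass. Irf2 stood at -0.48 ± 0.41 (adjusted p = 0.0795) and Irf3 at -0.35 ± 0.23 (adjusted p = 0.0831), the kinase Jak2 at -0.10 ± 0.20 (adjusted p = 0.549) and Irf8, a factor of myeloid cells, at 0.53 ± 0.96 (adjusted p = 0.261). Without JB, Irf2 passed at -0.70 (adjusted p = 0.0142) and Irf8 at 1.08 (adjusted p = 0.00254). The single measured sensor adaptor, Myd88, stood at 0.25 ± 0.30 (adjusted p = 0.221).

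Of the 14 measured effectors besides the 4 genes, 5 (35.7%) were lower, none was higher and 9 did not pass. The shares over all features were 32.8% lower and 20.7% higher. Sp100, a scaffold of nuclear bodies, was at -2.14 ± 0.37 (SD, n = 3 lines) and Samhd1, which degrades deoxynucleotides and restricts retroviruses, at -1.62 ± 0.04, with adjusted p of 0.000839 and 0.000525. Samhd1 kept its call under every alternative tried, and its 6 arrays lay between -1.80 and -1.48. Sp100 kept its call under every alternative except the test without moderation of the variances (adjusted p = 0.0547). Ifitm3 was lower at -0.98 ± 0.54 (adjusted p = 0.0173), next to Ifitm1 in size. Its call was lost without JA (adjusted p = 0.0794), without Amy (0.0815), with a spread for the pool (0.0984) and without moderation of the variances (0.158). Ifitm2, which lies beside Ifitm1 on the chromosome, stood at -0.0035 ± 0.31 and did not pass (adjusted p = 0.986). The 2 clones of Ifitm3 were close, at -0.97 and -0.98. Ifitm genes are similar in sequence, and cross-hybridization between their cDNAs was not tested.

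Sp110 was called at -0.95 ± 0.21 (adjusted p = 0.00388), but averaged 0.37 on the Cy3 arrays and -2.27 on the Cy5 arrays. Its call was lost without the JA array in Cy5 (-0.48, adjusted p = 0.213) or the JB array in Cy5 (-0.36, adjusted p = 0.534), with line as a random block (adjusted p = 0.222) and without moderation of the variances (adjusted p = 0.0638). Psme1, a subunit of the PA28 proteasome activator, was called at -0.39 ± 0.10 (adjusted p = 0.0391). That call was lost with dye orientation as a replicate block (adjusted p = 0.0569), with centered arrays (0.0958) and without any of the 3 lines (0.0638 to 0.158). It was also lost on leaving out any single array except JA in Cy5 (adjusted p of 0.0533 to 0.201) and on the Cy5 arrays alone (0.227). Rsad2 at -0.70 ± 0.68 did not pass (adjusted p = 0.0783), with ratios of -0.996, -1.54 and -1.90 in Cy3 and 0.85, 0.34 and -0.94 in Cy5 for JA, JB and Amy. Rsad2 passed on the Cy3 arrays alone, at -1.48 (adjusted p = 0.00308), without the JA array in Cy5 (0.00947) and without the JB array in Cy5 (0.0475), and stood at -0.39 without JA in Cy3 and -0.38 without JB in Cy3. The antiviral kinase Eif2ak2 stood at 0.33 ± 0.04 (adjusted p = 0.0557). It passed with dye orientation as a replicate block (0.0360) and with centered arrays (0.0223). On the Cy3 arrays alone it passed at 0.51 (0.0272), and on the Cy5 arrays alone it stood at 0.15 (0.367). The chemokine Ccl5 stood at 0.40 ± 0.43 (adjusted p = 0.130), and its 2 clones differed, at -0.09 and 0.89.

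In MHC class I presentation 1 of 7 genes was lower, none was higher and 6 did not pass. Beside this, 32.8% of all features were called lower and 20.7% higher. Erap1, which trims peptides in the endoplasmic reticulum, was at -0.59 ± 0.27 (adjusted p = 0.0225). Its call was lost without JA (0.125), without JB (0.0585), without the Cy5 array of any line (0.0561 to 0.0688) and on the Cy3 arrays alone (0.198). The call was also lost with a spread for the pool (0.119) and without moderation of the variances (0.127). RT1-CE5, a class I heavy chain, stood at -0.34 ± 0.10 and did not pass (adjusted p = 0.0562). It passed with dye orientation as a replicate block (0.0278) and on the Cy5 arrays alone, at -0.53 (0.0253). With centered arrays it stood at -0.23 (0.145) and on the Cy3 arrays alone at -0.16 (0.368). RT1-N3, of the same class, went the other way, at 0.43 ± 0.27 (adjusted p = 0.0569), and passed with centered arrays (0.0286), quantile normalization (0.0468) and without the Amy array in Cy3 (0.0434). B2m, the light chain of class I molecules, was measured by 9 clones and stood at -0.45 ± 0.42 (adjusted p = 0.0954), with -0.49 in JA, -0.01 in JB and -0.86 in Amy. It passed without JB, at -0.67 (adjusted p = 0.0191). Among the negative regulators, Socs1, an inhibitor of Janus kinases, was higher at 0.57 ± 0.18 (adjusted p = 0.0167). Its call was lost without JA (0.0988), with a spread for the pool (0.0961) and without moderation of the variances (0.0877). Its 2 clones differed, at 1.05 and 0.09. Pias2, Ptpn1 and Ptpn11 did not pass, at 0.37 ± 0.20, -0.07 ± 0.24 and 0.29 ± 0.11. Pias2 depended on its JB arrays: it passed at 0.60 without JB in Cy3 (adjusted p = 0.0229) and at 0.48 without JB (0.0433), and stood at 0.14 without JB in Cy5 (0.668). On the JB array in Cy3 its 2 clones read -1.55 and 0.46. The filter on dye disagreement removed the clone at -1.55, and Pias2 then stood at 0.36 (adjusted p = 0.0600). It also passed on the Cy5 arrays alone (0.0181), on the first spots alone (0.0160) and with centered arrays (0.0329). Ptpn11 passed with centered arrays (0.0376).

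**Figure D3:**
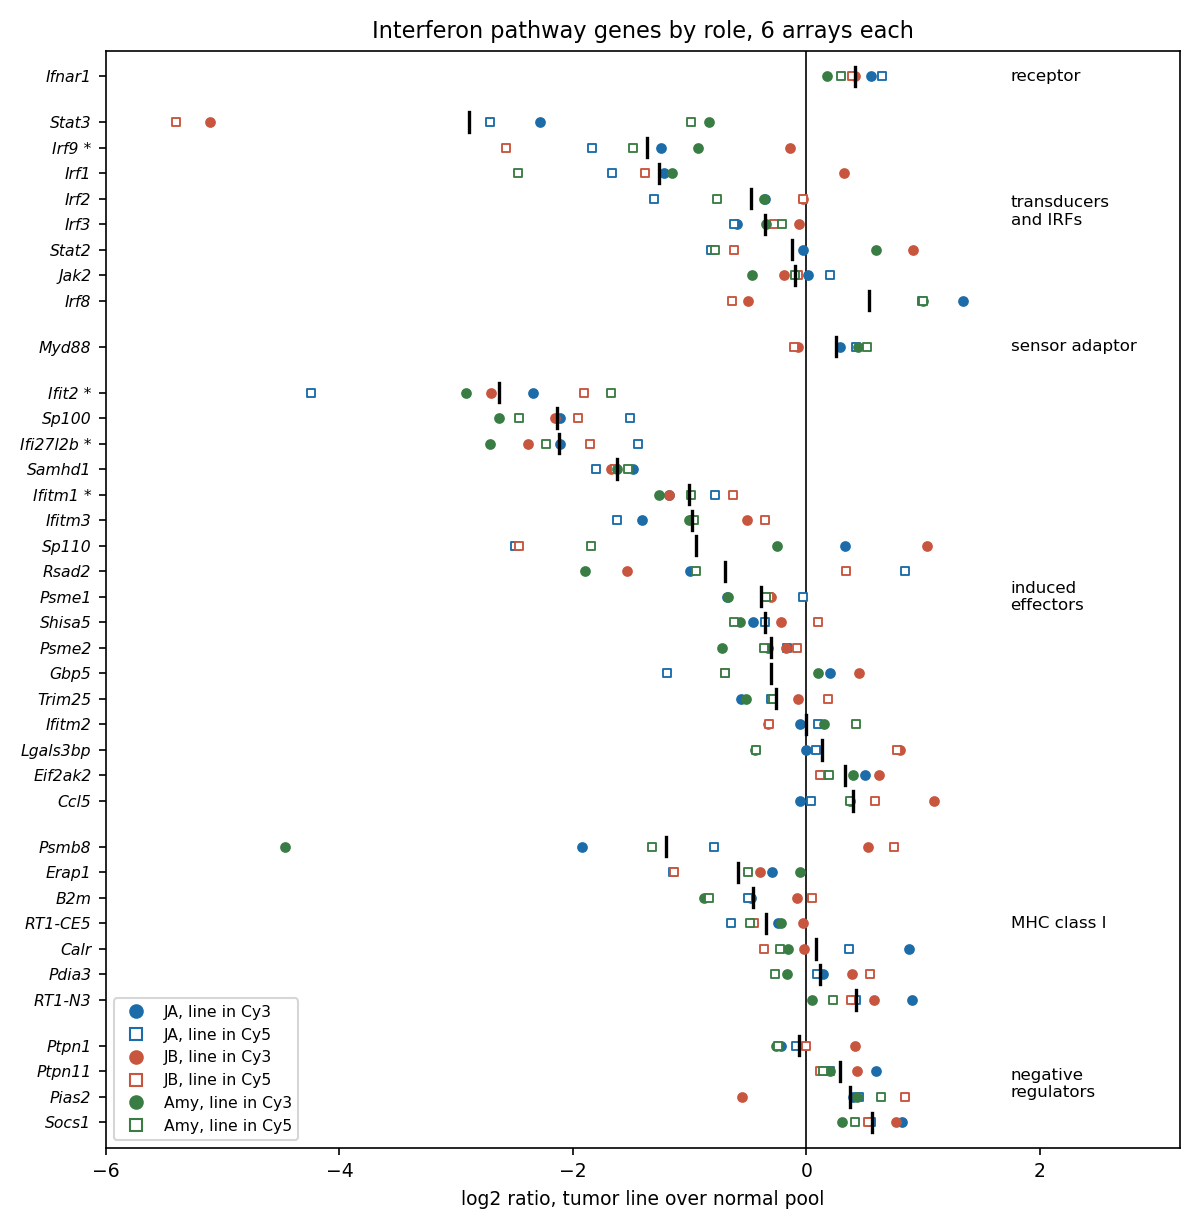
Log2 ratio of tumor line over normal pool on 6 arrays for 38 interferon pathway genes grouped by role; symbols as for the plot of paired spots, black bars give the mean of the 3 lines, and asterisks mark Irf9, Ifit2, Ifi27l2b and Ifitm1. Samhd1 and Sp100 lie in the range of the asterisked genes, while Stat2, Sp110 and Rsad2 spread across 0.

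Differences between lines have no biological replicate and were described by size. A gene set a line apart when that line differed from both others by at least 1 on the log2 scale, in the same direction, on both dye orientations. None of the 4 genes met this in any line, against 2.77% of all features. Over all features 1.30% had JB higher, 0.696% JB lower, 0.0696% JA higher, 0.292% JA lower, 0.306% Amy higher and 0.195% Amy lower. For Irf9, JB minus the mean of the other lines was 0.95 in Cy3 and -0.92 in Cy5, opposite signs of nearly equal size. For Ifit2 it was -0.07 and 1.05, for Ifi27l2b 0.02 and -0.02, and for Ifitm1 0.04 and 0.26.

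Of the 34 other pathway genes, 3 set a line apart, and the same 3 did so on the first spots alone and on the second spots alone. Psmb8, a catalytic subunit of the immunoproteasome, was higher in JB, at 0.53 and 0.75, than in JA, at -1.92 and -0.79, or in Amy, at -4.47 and -1.32 (Cy3 and Cy5). The lowest of these, Amy in Cy3, came from spots at -2.74 and -6.19. Irf8 was lower in JB, at -0.50 and -0.64, than in JA, at 1.34 and 0.99, or Amy, at 1.0 in both. These are means of 2 clones that differed in size. One clone had JB at -0.86 and -1.01 and met the rule by itself. The other had JB at -0.14 and -0.27 and Amy at 0.79 and 0.85. Its distance from Amy in Cy3 was under 1, so that clone alone did not meet the rule. Stat3 was lower in JB, at -5.11 and -5.40, and higher in Amy, at -0.83 and -0.99, with JA between them at -2.28 and -2.71.

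**Figure D4:**
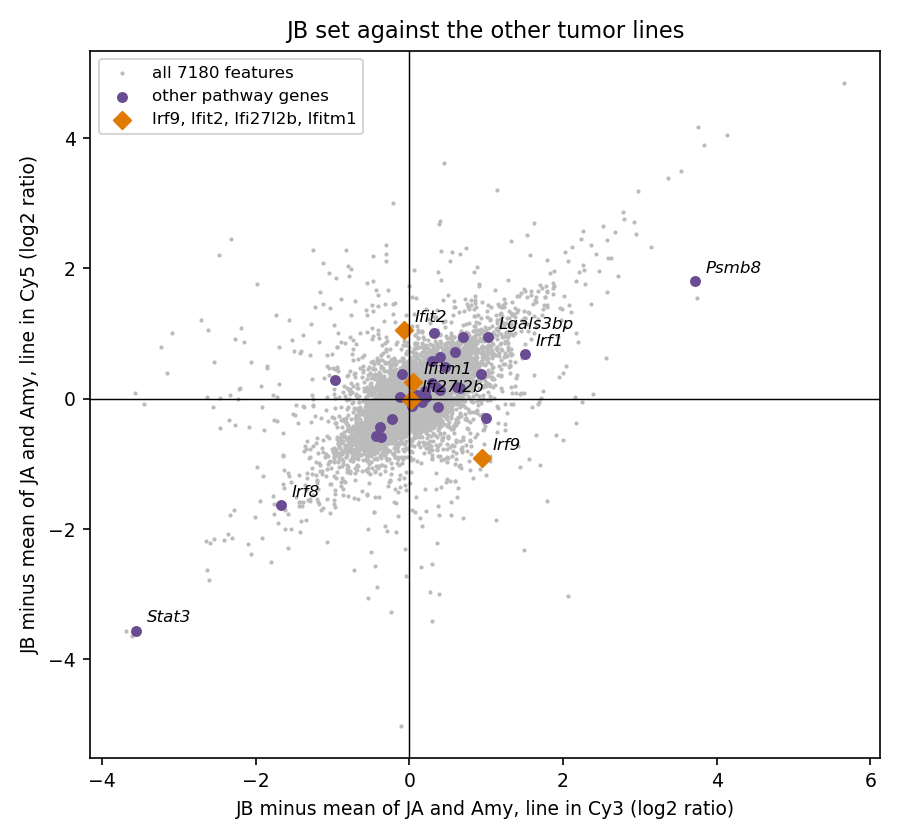
JB minus the mean of JA and Amy in log2 ratio, with the line in Cy3 on the horizontal and in Cy5 on the vertical axis, for all features (grey), 34 other pathway genes (purple) and the 4 genes (orange diamonds). Psmb8, Irf8 and Stat3 lie far from 0 on both axes with matching sign, Irf9 lies at 0.95 and -0.92, and Ifi27l2b and Ifitm1 lie near 0.

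Some other genes had nearly the same ratios on the 6 arrays. Likeness was the root mean square difference of the log2 ratios over the 6 arrays, which share the pool and the dyes. Nearest to Ifitm1 were the arrestin Arrb2 (0.08) and the calcium channel Itpr1 (0.12), followed by Coa5, Nrdc and Serf2 (0.13 to 0.14). Nearest to Ifi27l2b were the collagen Col14a1 (0.12) and Sp100 (0.15), followed by Camk2n1, Fstl1 and Apobec2 (0.23 to 0.29). Nearest to Irf9 were Zfp575 (0.36) and Abhd17b (0.40), followed by Raver1, Cryzl2 and Cubn (0.42 to 0.46). Ifit2 had no gene closer than Gprc5b (0.51), with Gstm7 at 0.62 and Zfp799, Pdlim2 and Map3k9 at 0.72 to 0.79. The pairs among the 4 genes themselves differed by 1.03 to 1.85, so none of the 4 was among the nearest of another.

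Pathway genes with and without the promoter letters had overlapping ratios. For comparison, 32.8% of all features were called lower and 20.7% higher, and their median was -0.12. The 14 genes with the ISRE core ran from -1.20 to 0.57 with a median of -0.31, 2 called lower and 1 higher. The 16 genes without it, Irf9 left out, ran from -2.89 to 0.53 with a median of -0.19, 5 called lower and 1 higher. With the GAS letters the median of 8 genes was -0.66, with 3 called lower and 1 higher, and without them the median of 22 was -0.19, with 4 lower and 1 higher.

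Markers of other cell types were lower in the tumor lines alongside these genes. Over all features 32.8% were called lower and 20.7% higher. In the lists of markers 8 of 9 measured leukocyte genes were called lower and 1, Tyrobp, was higher. One of the lower calls, Cd53, averaged 0.73 on the Cy3 arrays and -1.68 on the Cy5 arrays, so its direction turned with the dye. The leukocyte list had medians of -3.44 in JA, -3.44 in JB and -3.65 in Amy. All 9 fibroblast and matrix genes (median -4.18), all 3 endothelial genes (-1.53) and all 4 muscle genes (-3.68) were lower too. Of the squamous markers of the labelled tissue, Lgals7 and Cstb alone were measured, and both were lower, at -5.82 and -0.68. Of 5 general epithelial markers 3 were lower, Cdh3 was higher at 1.98 and 1 did not pass. The values are ratios, so the level of a marker in either sample is unknown and none can be placed at 0. The part of these cell types in the ratios of Irf9, Ifit2, Ifi27l2b and Ifitm1 was not tested. In bulk RNA a smaller share of cells of a type and less RNA per cell cannot be told apart.

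Within the pathway lists the 4 genes were not the 4 lowest. By mean log2 ratio over both spots Stat3 came first, followed by Ifit2, Sp100, Ifi27l2b, Samhd1, Irf9, Irf1, Psmb8 and Ifitm1, and Ifitm3 came just after at -0.98. Of these 10, Irf1 and Psmb8 were not negative on all arrays.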

How the data were processed

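RNA of 3 tumor lines was hybridized against 1 normal pool on 6 cDNA arrays with 2 colors. The authors deposited a log ratio for each spot of each array, read here on the log2 scale. The sources used here do not give the scanner, the background correction, the normalization, any spot filter or the log base. Base 2 was taken because the lowest value, -12.7, exceeds a scanner's range in base 10 or natural logarithms. Over spots, the 2 arrays of each line had correlations of 0.791 to 0.867, so no sign was changed.

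Adjacent spots formed 8064 clones, none with mixed symbols. Clones of a gene were averaged, giving 7180 features, 3158 of them named genes. Symbols came from the platform annotation, with 8084 spots carrying 1 symbol, 40 several and 8004 none; 8076 were matched by gene identifier to RefSeq (GRCr8), which changed 0 symbols. The 2 arrays of a line were averaged, and the mean of the 3 lines, and separately the Cy5 minus Cy3 difference of each line, was tested against 0 with limma 3.58.1 in R 4.3.3 (two-sided, Benjamini-Hochberg over all features, threshold 0.05). No low-value filter was used. The fits were tested on simulated data.

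The replicate number is the dye orientation per the labels, and the dye differences of the lines correlated at 0.526 to 0.613, so the numbers pair the arrays. The 4 genes, the lists and the tests were chosen with earlier results of these data known. Genes named were the 4 genes, up to 6 called genes per list with the largest mean, a fixed set of transducers with B2m and Isg15, and the 5 nearest genes to each of the 4; other pathway genes named, among them Jak2, Irf8, Myd88, Ifitm2, Rsad2, Eif2ak2, Gbp5, Ccl5, Psmb8, RT1-CE5, Lgals3bp, Calr, Pdia3, Pias2, Ptpn1 and Ptpn11, were chosen after their values were seen or set a line apart. Alternatives were other array scalings, lines or arrays left out, single dyes, spots and clones, line or dye as a block, a spread for the pool, no moderation of the variances, a filter on dye disagreement and a stricter threshold. Plots used matplotlib 3.10.9 (Python 3.11.15).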

Additional observations from a re-analysis of the deposited data

Results flagged for a closer look

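In 8 of 34 other pathway genes, the arrays of one line were all above 0 and those of another all below 0. The differences between lines were not tested. Over all features 10.4% showed this pattern. Some of these signs lay close to the array medians: with arrays centered on their medians Jak2 and Myd88 no longer showed the pattern, while Irf2 and Ptpn1 did, and with quantile normalization Jak2 no longer did. The widest was Psmb8, with JB above the pool and JA and Amy below it, a difference of 3.53 between JB and Amy. Irf8 was above the pool in JA and Amy and below it in JB, a difference of 1.74. Lgals3bp, which encodes a secreted glycoprotein, was above in JB and below in Amy, a difference of 1.22. In JA it was barely above the pool, at 0.00023 in Cy3 and 0.09 in Cy5. The chaperone genes Calr and Pdia3 differed by 0.82 (JA above, JB and Amy below) and 0.69 (JA and JB above, Amy below). Ifitm2 was above in Amy and below in JB, by 0.61, and Myd88 above in JA and Amy and below in JB, by 0.57. Jak2 was above in JA and below in JB and Amy, by 0.39. None of Irf9, Ifit2, Ifi27l2b and Ifitm1 showed opposite signs between lines, as deposited or under either scaling.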

How the results depend on the processing

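The means of Irf9, Ifit2, Ifi27l2b and Ifitm1 stayed negative under every alternative run, from -1.97 to -0.77, -3.20 to -2.06, -2.40 to -1.84 and -1.20 to -0.80. The filter on dye-swap disagreement removed Irf9 and Ifit2. Of 3843 features called against the pool, the number fell to 1970 with a spread for the pool, 1040 without moderation of the variances and 2290 at a threshold of 0.01; leaving out a line or array gave 2076 to 3716. The 10 other pathway genes called became 3, 2 and 3 under those settings and 3 to 13 with a line or array left out (6 without Amy, and 6 without the JB array in Cy5). The 36 features called for the dye difference became 440 with quantile normalization, 0 without moderation, 0 at 0.01, 1 on the first spots alone and 1 on the second, and 0 without any one line. With dye orientation as a replicate block, 3913 features and 11 pathway genes were called; against the 10, that block ended the call of Psme1 and added Eif2ak2 and RT1-CE5. Sp110 turned to 0.37 on the Cy3 arrays. The settings using single spots or leaving out single arrays, and the scalings of the opposite-sign pattern, were chosen after seeing the data. The cause of these shifts was not tested. Spot intensities were not used, so no limit of signal over background can be given.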
